A study of Mus musculus with 4 samples.

Results

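A set of 30 lysosome genes was followed across the cell types of the mouse lung after long exposure to tamoxifen, a cationic amphiphilic drug. The genes were taken by symbol from the 32285 genes of the count matrices, and all 30 were found there. By role they comprise 8 membrane proteins and channels, 8 proteases with their partners, 5 glycosidases, 6 lipid hydrolases and their activators, and 3 subunits of the proton pump.

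Whole lung cells of 4 female mice were profiled, with 2 mice in each group and 1 library of 10x Genomics 5' single-cell RNA sequencing per mouse. All mice were FVB/NJ carrying the MMTV-PyMT transgene, in which a mammary tumour virus promoter drives the polyoma middle T antigen in the mammary gland, so the placebo mice too were of a tumour-prone line. At 8 weeks of age each mouse had a pellet implanted, either placebo or 5 mg tamoxifen with 60-day release. Lungs were taken 5 weeks later, at 13 weeks of age. Each p-value rests on 2 mice per group.

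The lysosome is the acidic compartment in which cells break down proteins, glycans and lipids. Its pH is set by a proton-pumping ATPase, its membrane is lined by heavily glycosylated proteins such as LAMP1 and LAMP2, and its lumen holds cathepsins, glycosidases and lipases. Cationic amphiphilic drugs are weak bases that accumulate in acidic compartments and can cause phospholipid storage, for which alveolar macrophages and type 2 cells, which take up and recycle surfactant, are the best known cells of the lung. Many lysosome genes share a promoter element bound by the transcription factor TFEB and its relatives, which act when lysosomes are under stress.

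The element is a 10-base palindrome made of the core CACGTG with GT before it and AC after it. Promoters of 26 of the 30 genes were in a RefSeq table (build GRCm38.p6) that spans 250 bases before to 50 bases after each gene's start. The core, which reads the same on both strands, occurred in 9 of the 26 (34.6%), against 2187 of 27025 genes (8.09%) in the whole table. The 9 genes were Lamp1, Mcoln1, Ctsa, Ctsd, Ctsl, Glb1, Gla, Gaa and Atp6v1a. The whole palindrome was in none of the 26 and in 100 of 27025 promoters (0.37%). A run of 9 of its 10 bases was in 4 of the 26 (15.4%) and in 242 of 27025 (0.895%). The table can hold several windows of a gene, and a gene was counted where any of them matched. These 4 promoters are shown because they carry the longest match, in capitals. Ctsa has 2 windows in the table, and the one shown, for the later start, holds 2 such matches, at bases 237 to 245 and 255 to 263, the second of them after the start. The single matches of Ctsd, Gla and Mcoln1 lie before the start of their window. By the gene bounds of GENCODE (GRCm38), which can begin earlier, the matches of Ctsa, Ctsd and Mcoln1 lie inside the gene and that of Gla lies outside it. Ctsa is the protective protein of the lysosome and a carboxypeptidase, Ctsd an aspartic protease, Gla the alpha-galactosidase A, and Mcoln1 the calcium channel of the lysosome membrane. The promoter of Ctsa is at chr2:164833523-164833822 on the plus strand, that of Ctsd at chr7:142387778-142388077 on the minus strand, that of Gla at chrX:134600956-134601255 on the minus strand, and that of Mcoln1 at chr8:3500269-3500568 on the plus strand.
Ctsa: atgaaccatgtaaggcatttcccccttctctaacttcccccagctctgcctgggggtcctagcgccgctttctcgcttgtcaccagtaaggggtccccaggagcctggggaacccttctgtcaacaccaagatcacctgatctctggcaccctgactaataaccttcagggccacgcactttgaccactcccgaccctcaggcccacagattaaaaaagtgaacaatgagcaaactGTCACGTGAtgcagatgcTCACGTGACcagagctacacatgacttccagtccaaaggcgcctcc
Ctsd: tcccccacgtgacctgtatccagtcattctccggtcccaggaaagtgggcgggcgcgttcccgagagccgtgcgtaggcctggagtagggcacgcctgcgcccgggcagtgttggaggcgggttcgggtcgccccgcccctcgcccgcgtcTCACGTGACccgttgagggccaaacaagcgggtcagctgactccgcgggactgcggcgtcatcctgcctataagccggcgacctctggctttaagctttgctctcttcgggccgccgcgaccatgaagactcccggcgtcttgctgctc
Gla: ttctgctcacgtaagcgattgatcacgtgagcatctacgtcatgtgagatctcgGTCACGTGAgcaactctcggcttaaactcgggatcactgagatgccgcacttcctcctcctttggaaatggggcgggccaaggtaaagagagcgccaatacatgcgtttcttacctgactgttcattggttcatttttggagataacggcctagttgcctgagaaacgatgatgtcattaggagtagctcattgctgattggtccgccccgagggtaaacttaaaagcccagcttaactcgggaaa
Mcoln1: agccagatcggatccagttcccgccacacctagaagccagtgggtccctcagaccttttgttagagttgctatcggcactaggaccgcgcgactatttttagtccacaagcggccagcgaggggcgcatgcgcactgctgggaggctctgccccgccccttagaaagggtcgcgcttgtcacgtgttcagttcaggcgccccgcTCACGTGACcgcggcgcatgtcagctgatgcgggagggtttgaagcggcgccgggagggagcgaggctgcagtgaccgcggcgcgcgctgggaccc
A match of letters is a description of the sequence and shows no binding. Of these 4 genes, none passed the test between tamoxifen and placebo in a lead class. In alveolar macrophages Ctsa was lower and Gla higher in both tamoxifen mice, and in interstitial macrophages Mcoln1 was lower in both, with the values given under each class.

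The libraries held 32646505 to 37285982 unique molecular identifiers (UMIs, counted RNA molecules), and 6674 to 7484 cells per mouse were kept. Median UMIs per cell were 2626 and 4064 under placebo and 3233 and 2909.5 under tamoxifen, so placebo 2 was the deepest per cell. Pairs of libraries shared 77 to 128 cell barcodes. Cells were grouped without use of the 30 genes, and groups were named from marker genes, so each class is defined by its markers (alveolar macrophage-like and so on). The lead classes were alveolar macrophages (300 and 274 placebo cells, 264 and 298 tamoxifen cells), interstitial macrophages (208 and 120, 145 and 243) and alveolar type 2 cells (136 and 82, 106 and 66). Every fixed marker had UMIs in its class: 14 of 14 for alveolar macrophages, led by Ear2, Chil3 and Cd9, 13 of 13 for interstitial macrophages, led by C1qa, C1qb and C1qc, and 11 of 11 for type 2 cells, led by Sftpc. Values per class are CPM, a gene's UMIs relative to all UMIs of the class in that mouse after TMM scaling (unscaled CPM where so named), given in the order placebo 1, placebo 2, tamoxifen 1, tamoxifen 2.

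The level of the 30 genes differed most between cell types. Their summed UMIs made up 1.76% of all UMIs of interstitial macrophages and 1.51% of those of alveolar macrophages (means of 4 mice), and 0.99% in classical monocytes, the next of the 22 classes with at least 20 cells in every mouse. Alveolar type 2 cells stood at 0.319% and erythroid cells, the lowest, at 0.119%. Cavity macrophages, marked by Prg4 and Fcna and left out of the tests because placebo 2 gave 9 cells, stood at 1.49%.

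**Figure D1:**
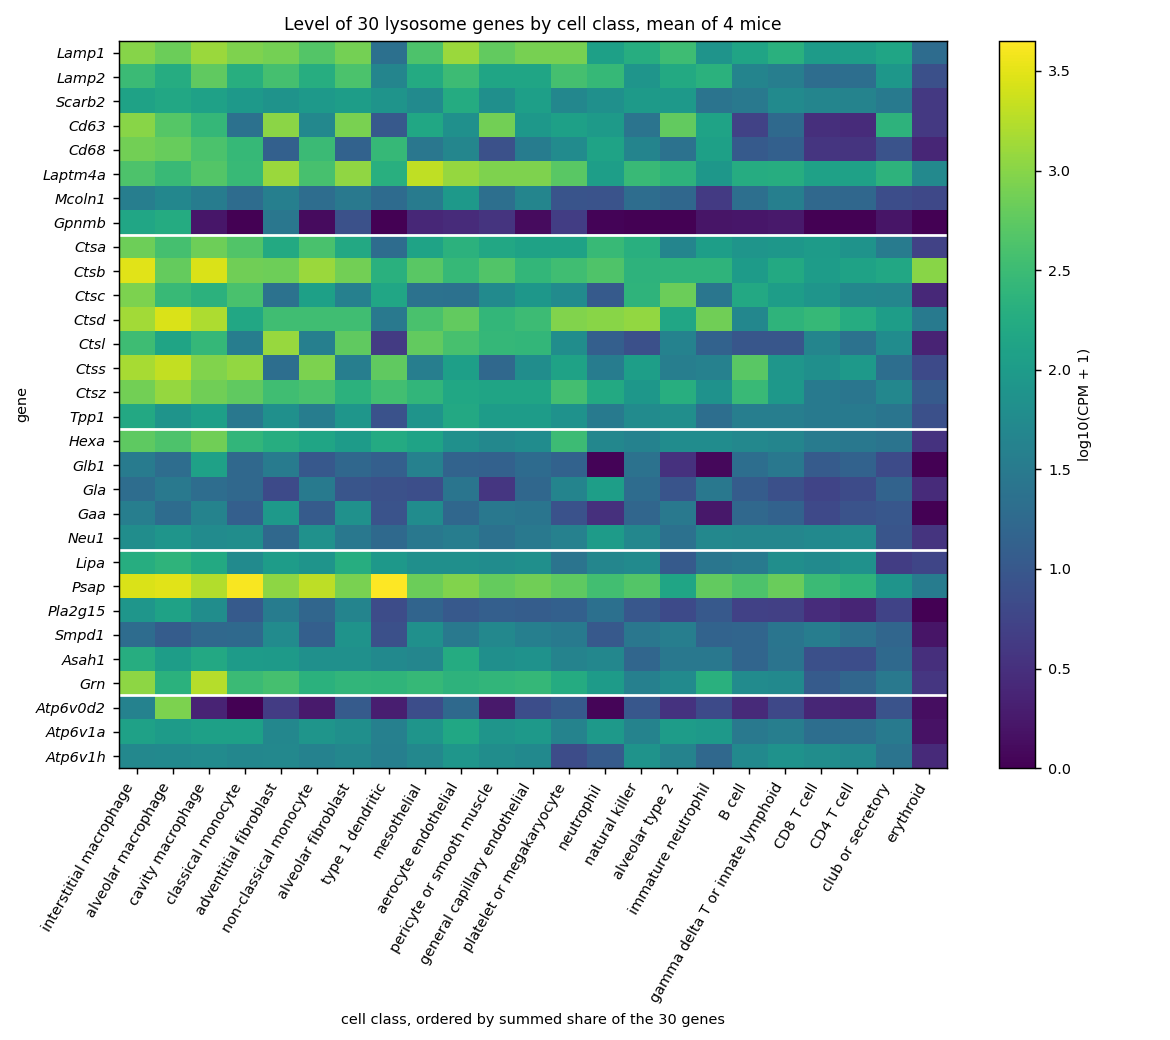
Mean level over 4 mice of the 30 lysosome genes (rows, in role order from membrane proteins at the top to proton pump subunits at the bottom, with white lines between roles) in 23 cell classes (columns, ordered by the summed share), as log10(CPM + 1). Macrophage columns on the left are bright for most proteases, and the erythroid column on the right is dark for most genes.

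Of the 30 genes, 14 had their highest mean level in a macrophage class and 6 in aerocytes, the capillary endothelial cells of gas exchange. In 17 of 30 the range over mice in the highest class did not overlap that in the next. Among membrane proteins, Lamp1 was highest in aerocytes at 1282 CPM (1176 to 1406 over mice), above interstitial macrophages at 967 CPM (844 to 1067). Laptm4a, a transmembrane protein of late endosomes, was highest in mesothelial cells at 2017 CPM (1905 to 2129). Cd63, a tetraspanin of late endosomes, reached 1041 CPM in adventitial fibroblasts and 1012 CPM in interstitial macrophages, with overlapping ranges.

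Among proteases, Ctsd was highest in alveolar macrophages at 2827 CPM (2502 to 3342), and Ctss, a cathepsin of antigen-presenting cells, was highest there too at 2072 CPM (1916 to 2246). Ctsb was highest in interstitial macrophages at 3123 CPM (2571 to 3606), followed by non-classical monocytes at 1259 CPM. Ctsl was highest in adventitial fibroblasts at 1241 CPM (1133 to 1315). Ctsc, which activates granule proteases, was at 864 CPM in interstitial macrophages and at 669 CPM in alveolar type 2 cells, the next class.

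Glycosidases did not follow the macrophage pattern as a group. Gla was highest in neutrophils at 110 CPM (94.1 to 131), with platelets next at 43.2 CPM, and the sialidase Neu1 was also highest in neutrophils at 98.8 CPM (95.3 to 105). Hexa was highest in interstitial macrophages at 553 CPM (515 to 589). Of the lipid genes, Psap, the precursor of the saposins that activate lipid hydrolases, was at 4485 CPM in type 1 dendritic cells and 4187 CPM in classical monocytes, with overlapping ranges. The acid lipase Lipa was highest in alveolar macrophages at 238 CPM (199 to 259), as was the lysosomal phospholipase Pla2g15 at 127 CPM (115 to 143), with interstitial macrophages next at 82.6 CPM. Grn, the progranulin gene, was highest in interstitial macrophages at 1073 CPM (1007 to 1130).

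The proton pump subunit Atp6v0d2, an isoform of macrophages and osteoclasts, showed the widest gap: 849 CPM in alveolar macrophages (812 to 904) and 40.6 CPM in interstitial macrophages (2.38 to 109), the next class. The pump subunits Atp6v1a and Atp6v1h were highest in aerocytes, at 150 and 82.3 CPM, with ranges that overlapped those of the next class. Erythroid cells were lowest for 23 of the 30 genes. Cavity macrophages had a higher mean than any of the 22 classes for 4 genes, namely Grn (1759 CPM), Hexa (728 CPM), Lamp2 (576 CPM) and Glb1 (122 CPM).

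No lysosome gene passed the test of tamoxifen against placebo in alveolar macrophages, in interstitial macrophages or in alveolar type 2 cells. The edgeR quasi-likelihood test with Benjamini-Hochberg adjustment over all genes of a class called 0 of 29 tested genes in alveolar macrophages, 0 of 30 in interstitial macrophages and 0 of 22 in type 2 cells. An unadjusted p under 0.05 was reached by none of them in these 3 classes, and DESeq2 too called 0. Of all genes tested, 0.00% were called in alveolar macrophages (0 of 5636), 0.00% in interstitial macrophages (0 of 8278) and 0.0223% in type 2 cells (1 of 4476). The 95% interval of the fold change lay within a doubling and a halving for 28 of 29 genes in alveolar macrophages, 24 of 30 in interstitial macrophages and 12 of 22 in type 2 cells. A difference smaller than these intervals could not have been seen with 2 mice in a group.

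**Figure D2:**
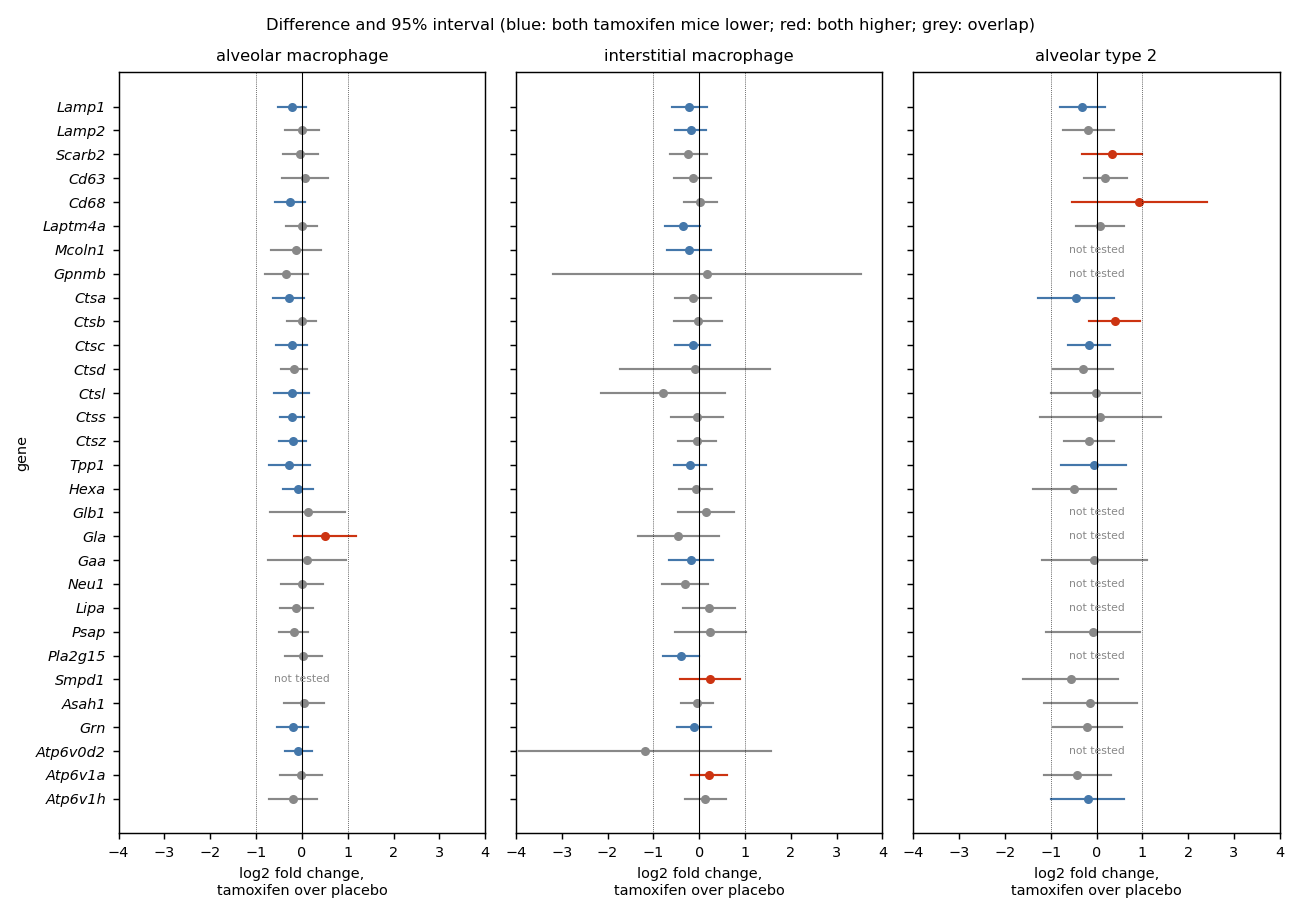
Log2 fold change of tamoxifen over placebo (points) with its 95% interval (lines) for the 30 genes in the 3 lead classes, from edgeR. Dotted lines mark a doubling and a halving, colours mark genes whose 2 tamoxifen mice both lay below (blue) or above (red) both placebo mice, and every interval crosses 0; those of Gpnmb, Ctsd, Ctsl and Atp6v0d2 in interstitial macrophages are the widest of that class.

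In alveolar macrophages, the resident macrophages of the air spaces that clear surfactant, most lysosome genes lay slightly lower in the tamoxifen mice, without a call. The summed share was 1.52% and 1.71% under placebo and 1.34% and 1.46% under tamoxifen, so the groups did not overlap. Both tamoxifen mice were below both placebo mice for 11 of 29 tested genes, against 16.0% of all genes of the class, and above for 1 of 29, against 16.3%. The median log2 fold change was -0.12, and that of all genes 0.01. Without placebo 2 the median of the 29 genes was -0.03, and with cells gated one by one from markers it was -0.05, so it was closer to that of all genes in both cases. Neutrophil markers in this class, all 10 with UMIs, summed to 418, 479, 553 and 1723 unscaled CPM, higher in both tamoxifen mice, and their part in the values was not tested. The class joins 2 clusters. Number 9, with a median of 2542.5 UMIs per cell, had 206, 188, 169 and 165 cells. Number 29, with a median of 1486.5, had 94, 86, 95 and 133. The part of this make-up in the values was not tested either.

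By role, all 8 proteases had a negative fitted change (median -0.22), and both tamoxifen mice were lower for 6 of the 8. Ctsa was at 409, 403, 325 and 340 CPM (log2 fold change -0.29 ± 0.16 SE, adjusted p = 0.999). Tpp1, a tripeptidyl peptidase, was at 85.3, 82.7, 63.2 and 76.2 CPM (-0.27 ± 0.22). In both cases the placebo mice lay close together and above the tamoxifen mice. Ctsc was at 315, 298, 274 and 250 CPM (-0.22 ± 0.16), and Ctsl at 151, 135, 122 and 123 CPM (-0.22 ± 0.19). Ctss was at 2246, 2207, 1920 and 1916 CPM (-0.22 ± 0.13), and Ctsz at 1211, 1316, 1035 and 1163 CPM (-0.20 ± 0.14). The most abundant protease, Ctsd, was at 2638, 3342, 2502 and 2824 CPM (-0.17 ± 0.14), and there the groups overlapped, because tamoxifen 2 lay above placebo 1.

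Of the 8 membrane genes, 2 were lower in both tamoxifen mice. Cd68, a macrophage glycoprotein of the LAMP family, was at 634, 744, 528 and 621 CPM (-0.26 ± 0.16). Lamp1 was at 689, 765, 618 and 631 CPM (-0.22 ± 0.15). Gpnmb, a glycoprotein known to be raised in macrophages with a lipid-laden lysosome, was at 151, 244, 116 and 199 CPM (-0.34 ± 0.23), with overlap. Its UMIs were found in 23.7% and 34.7% of placebo cells and in 17.8% and 19.5% of tamoxifen cells, at median depths of 2177.5, 2692.5, 2264 and 1741.5 UMIs per cell. The mouse with the deepest cells had the highest share, and shares were not compared at equal depth. Cd63 was at 275, 665, 413 and 575 CPM (0.07 ± 0.25), lowest in placebo 1 and highest in placebo 2. Without placebo 2, in a fit with 1 placebo mouse, its log2 fold change was 0.85.

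The 5 glycosidases had a median of 0.11, with 1 negative fitted change, that of Hexa. Gla, the only one of the 29 genes higher in both tamoxifen mice, was at 22.6, 25.7, 33.9 and 34.8 CPM, from 18 to 23 UMIs per mouse (0.50 ± 0.33, adjusted p = 0.999), and its interval of -0.17 to 1.18 was the one that reached past a doubling. Of the lipid genes, Psap was at 2706, 3821, 2605 and 3152 CPM (-0.18 ± 0.15) with overlapping groups. The sphingomyelinase Smpd1 had 4 to 11 UMIs per mouse and was not tested. The phospholipase Pla2g15, whose product is known to be inhibited by cationic amphiphilic drugs, was at 115, 136, 116 and 143 CPM (0.03 ± 0.19). All 3 pump subunits had negative fitted changes, and Atp6v0d2 was at 841, 904, 838 and 812 CPM (-0.08 ± 0.14).

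**Figure D3:**
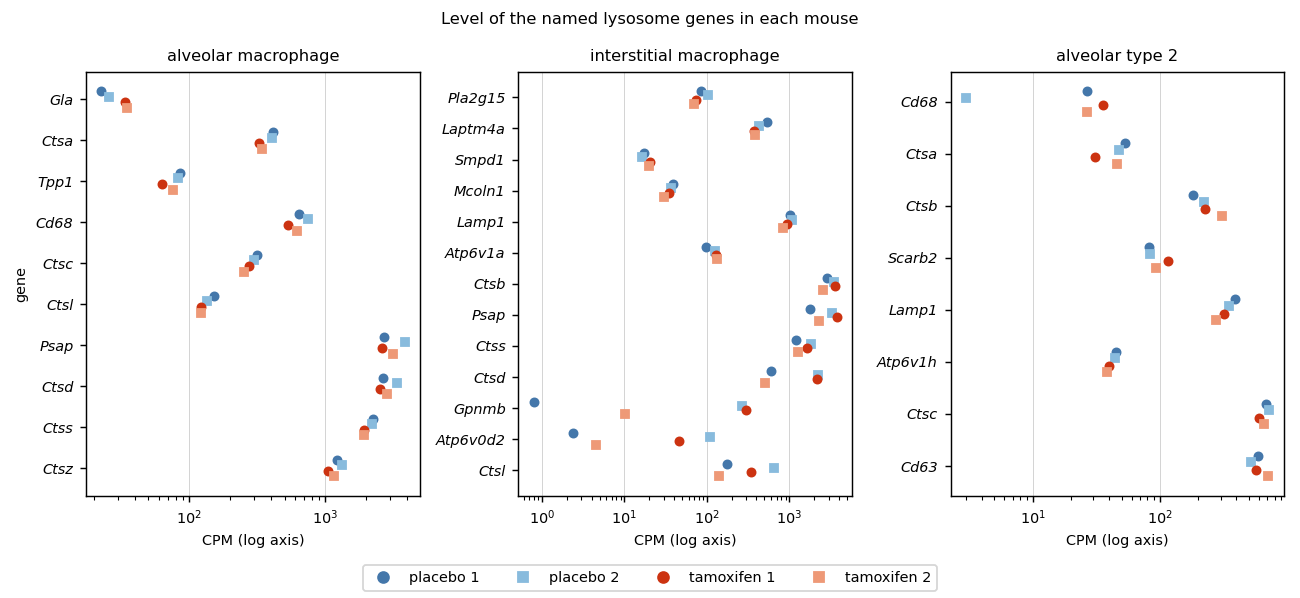
Level in each mouse (CPM, log axis) of the named lysosome genes in the 3 lead classes. Blue symbols are placebo mice and red symbols tamoxifen mice; in alveolar macrophages most red symbols lie slightly left of the blue ones, and in interstitial macrophages Gpnmb, Atp6v0d2, Ctsl and Ctsd are high in 1 mouse of each group.

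In interstitial macrophages, which lie in the tissue around vessels and airways, both tamoxifen mice were lower for 9 of 30 genes, against 16.4% of all genes of the class, and higher for 2, against 15.9%. The median log2 fold change was -0.12, that of all genes 0.00, and without placebo 2 the median of the 30 genes was 0.03. Among membrane genes, 4 of 8 were lower in both tamoxifen mice. Laptm4a was at 541, 435, 372 and 387 CPM (-0.36 ± 0.17, adjusted p = 1.00). Lamp1 was at 1012, 1067, 944 and 844 CPM (-0.22 ± 0.16). Mcoln1 was at 38.9, 36.6, 34.7 and 30.2 CPM (-0.23 ± 0.21), and with equal cells per mouse its fitted change was 0.02. The spread within a group was of the size of the gap between the groups for each of these 3 genes.

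Among the lipid genes, Pla2g15 was at 84.1, 103, 73.6 and 69.4 CPM (-0.39 ± 0.17), with the smallest unadjusted p of those named in this class, 0.0525. Smpd1 was at 17.5, 16.5, 20.3 and 19.9 CPM (0.24 ± 0.28), from 18 to 31 UMIs. Of the pump subunits, Atp6v1a was at 98.4, 126, 128 and 132 CPM (0.22 ± 0.17). These 2 genes were the only ones of the 30 that were higher in both tamoxifen mice in this class.

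The 4 genes with the highest level in interstitial macrophages were spread widely within each group. Ctsb was at 2831, 3482, 3606 and 2571 CPM (-0.03 ± 0.23), Psap at 1795, 3332, 3790 and 2285 CPM (0.24 ± 0.34), and Ctss at 1199, 1856, 1656 and 1286 CPM (-0.05 ± 0.25). Ctsd was at 603, 2230, 2172 and 502 CPM (-0.08 ± 0.71), more than 3-fold apart within both groups. In each of these genes placebo 2 and tamoxifen 1 were the higher mice.

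A further 3 genes, chosen after their values were seen, showed the same split more strongly. Gpnmb was at 0.793, 270, 296 and 10.3 CPM, from 1, 295, 350 and 16 UMIs. Atp6v0d2 was at 2.38, 109, 46.5 and 4.5 CPM, and Ctsl at 175, 657, 342 and 139 CPM. The split set 1 placebo and 1 tamoxifen mouse apart from the other mouse of their group, and its cause was not tested. The fitted differences between tamoxifen and placebo had SEs of 1.45, 1.19 and 0.59.

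A few cells carried that split. Of 716 interstitial macrophages, 14 had a Gpnmb UMI (1.96%, exact 95% interval 1.07 to 3.26%), namely 1, 6, 4 and 3 cells, and 12 of the 14 lay in 1 of the 3 clusters of the class. In neutrophils, given as background, 3 of 11052 cells had a Gpnmb UMI (0.0271%), at a median of 2745.5 UMIs per cell against 6595.5 in interstitial macrophages. In placebo 2 those 6 cells were 5% of the class's cells and held 13% of its UMIs, 36.9% of the UMIs of the 30 genes, 76.6% of Ctsd, 83.8% of Ctsl and 97.5% of Atp6v0d2. In tamoxifen 1 the 4 cells were 2.76% of the cells and held 37.2% of the UMIs of the 30 genes, 80.6% of Ctsd, 68.8% of Ctsl and 74.5% of Atp6v0d2. In tamoxifen 2 the 3 cells held 3.18% of them, and in placebo 1 the single cell held 0.705%.

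Within these cells the 30 genes made up 5.93% of UMIs in placebo 2 and 7.86% in tamoxifen 1. In the other interstitial macrophages of the same mice they made up 1.51% and 1.43%. These shares are pooled over cells, so deep cells weigh most. In tamoxifen 1 a single cell of 54004 UMIs held 1399 of the 2069 Ctsd UMIs and 247 of the 350 Gpnmb UMIs. In placebo 2 a cell of 48606 UMIs held 925 of 1867 and 124 of 295. The 14 cells had a median of 19280 UMIs and up to 54004, and choosing cells by a Gpnmb UMI favours deep cells. That of placebo 1 had 7119 UMIs, and those of tamoxifen 2 had 1266 to 12817. The cells of placebo 2 and tamoxifen 1 held Spp1, which encodes osteopontin, and Fabp5, a fatty acid-binding protein. The placebo 1 cell held neither, and the tamoxifen 2 cells held 1 to 21 Spp1 UMIs each. In placebo 2 the cells carried 98.1% of the class's Spp1 UMIs and in tamoxifen 1 91.5%. C1qa, which marks the class, was lower in them than in its other cells, at 4136 against 7995 unscaled CPM in placebo 2 and 3650 against 7132 in tamoxifen 1, and 1 to 329 UMIs were found per cell. Of the alveolar macrophage markers Ear2, Chil3 and Fabp1, Ear2 was at 167 against 65.3 in placebo 2 and at 61.7 against 70.1 in tamoxifen 1. In placebo 2, 22 of the 24 Ear2 UMIs of these cells lay in 1 cell, which had 2 Gpnmb UMIs. Chil3 was at 118 against 16.6 and at 17.6 against 19.9, and Fabp1 at 0 against 4.14 and at 44.1 against 15.1. The part of such cells or RNA in these values was not tested. Of the 14, 1 cell of placebo 2 with 48606 UMIs also held 65 Krt8 and 57 Krt18 UMIs, both epithelial keratins. Doublet scores of the 14 ran from 0.0563 to 0.152, under the limit of 0.25.

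**Figure D4:**
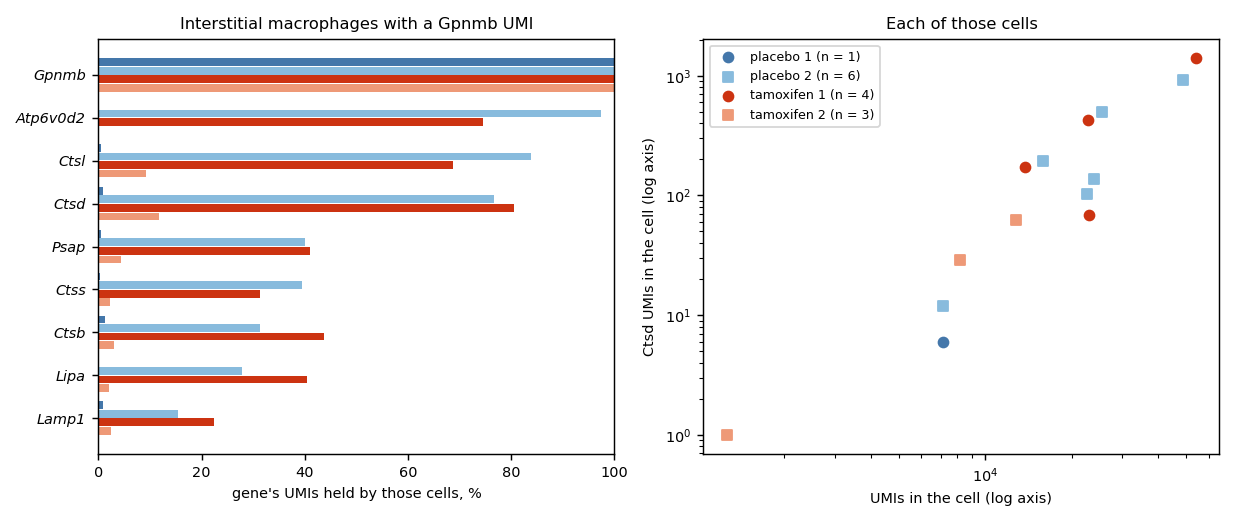
Left, the share (%) of each gene's UMIs in interstitial macrophages that was held by the 14 cells with a Gpnmb UMI, by mouse; the share of Gpnmb is 100% because that gene chose the cells. Right, UMIs in the cell against Ctsd UMIs in the cell for each of the 14 cells (both log axes), with placebo 2 and tamoxifen 1 cells holding most of the large values.

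Without these cells the levels of the 4 mice lay closer together. Ctsd was then at 601, 592, 471 and 425 unscaled CPM, Ctsl at 175, 120, 119 and 121, and Ctss at 1202, 1273, 1274 and 1209. No gene of the 30 was called then either (0 of 28 tested), and the median log2 fold change was -0.16. The fitted change of Ctsd was then -0.39 (adjusted p = 0.98). The summed share of the 30 genes, 1.52% and 2.08% under placebo and 2.05% and 1.40% under tamoxifen with all cells, was 1.52%, 1.51%, 1.43% and 1.37% without them.

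In alveolar type 2 cells, which make and recycle surfactant in a lysosome-related organelle, the summed share was nearly level: 0.328% and 0.319% under placebo, 0.311% and 0.318% under tamoxifen. Both tamoxifen mice were lower for 5 of 22 tested genes, against 13.9% of all genes of the class, and higher for 3, against 15%. The median log2 fold change was -0.15, that of all genes 0.00, and without tamoxifen 1 the median of the 22 genes was -0.03. The other 8 genes (Mcoln1, Gpnmb, Glb1, Gla, Neu1, Lipa, Pla2g15 and Atp6v0d2) had too few UMIs for a test, and Gpnmb had none in any mouse.

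The most abundant of the 30 genes in type 2 cells was Ctsc, at 688, 725, 599 and 663 CPM (-0.16 ± 0.21, adjusted p = 0.995). Cd63, also a membrane protein of lamellar bodies, was at 589, 525, 570 and 709 CPM (0.19 ± 0.22). Lamp1 was at 391, 349, 317 and 278 CPM (-0.31 ± 0.23), lower in both tamoxifen mice, while Ctsb was at 184, 221, 226 and 308 CPM (0.39 ± 0.26), higher in both. In Ctsb placebo 2 and tamoxifen 1 lay closer to each other than the mice of either group did. Scarb2, the receptor that carries glucocerebrosidase to the lysosome, was at 82.6, 83.5, 115 and 92.5 CPM (0.34 ± 0.30). Ctsa was at 53.7, 47.7, 31.0 and 46.3 CPM (-0.45 ± 0.38), and Atp6v1h at 45.5, 44.7, 39.9 and 38.5 CPM (-0.20 ± 0.37).

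Cd68 had the largest fitted change in type 2 cells, 0.93 ± 0.68, from 26.9, 2.98, 35.5 and 27.0 CPM (13, 1, 16 and 7 UMIs). Placebo 1 and tamoxifen 2 were level, and placebo 2 alone was low. Markers of alveolar macrophages in this class, of which 12 of 14 had UMIs and Marco and Slc39a2 were at 0, summed to 629, 293, 470 and 598 unscaled CPM. They were likewise lowest in placebo 2, and most of them were Cd9 UMIs, while Ear2 had 37, 0, 0 and 25 UMIs. Markers of interstitial macrophages summed to 217, 106, 152 and 211, with Ccl12 and Cd163 at 0. Their part in the Cd68 values was not tested.

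The tamoxifen difference itself was then compared between cell types. Between alveolar macrophages and type 2 cells, 0 of 30 genes differed in the group by class term of edgeR, against 0.0736% of all genes (5 of 6792), and 1 of 30 had an unadjusted p under 0.05. That gene was Cd68, with a difference of 1.2 ± 0.55 on the log2 scale (type 2 cells minus alveolar macrophages, edgeR adjusted p = 1). Between the macrophage classes 0 of 30 differed, against 0.0120% of all genes (1 of 8366), and none had an unadjusted p under 0.05. Gla came nearest, at -0.97 ± 0.46 (interstitial minus alveolar macrophages). Leaving out 1 mouse gave calls between the macrophage classes only for Gpnmb, Atp6v0d2, Ctsd and Ctsl. In interstitial macrophages of placebo 2 and tamoxifen 1, the cells with a Gpnmb UMI held 68.8 to 97.5% of the UMIs of Ctsd, Ctsl and Atp6v0d2. In placebo 1 and tamoxifen 2 they held 0 to 11.8%. For Gpnmb the share is 100% in every mouse, because that gene chose the cells. The part of these cells in the calls was not tested.

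The 19 further classes gave the same count. Of 414 tested pairs of class and gene, 0 were called, against 0.0565% of all pairs of class and gene (67 of 118555), and 19 had an unadjusted p under 0.05 (4.59%), against 3.70% of all pairs. DESeq2 called 0 as well. The median of the 30 genes was negative in 11 of the 19 classes and positive in 8. In adventitial fibroblasts, the fibroblasts around vessels and airways, both tamoxifen mice were lower for 13 of 27 genes, against 16.9% of all genes, and higher for 3, against 17.0%. Their median log2 fold change was -0.19. Ctss went against it, at 10.6, 0, 36.7 and 33.2 CPM from 10, 0, 24 and 25 UMIs (2.3 ± 0.59, unadjusted p = 0.00291, adjusted p = 0.489), and was called without the count filter and without placebo 1, tamoxifen 1 or tamoxifen 2. In alveolar fibroblasts 9 of 30 were lower in both tamoxifen mice, against 13.8%, and 0 were higher, against 14.9%. B cells showed the opposite, with 9 of 26 higher in both tamoxifen mice, against 17.2%, and 3 lower, against 17.1%.

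**Figure D5:**
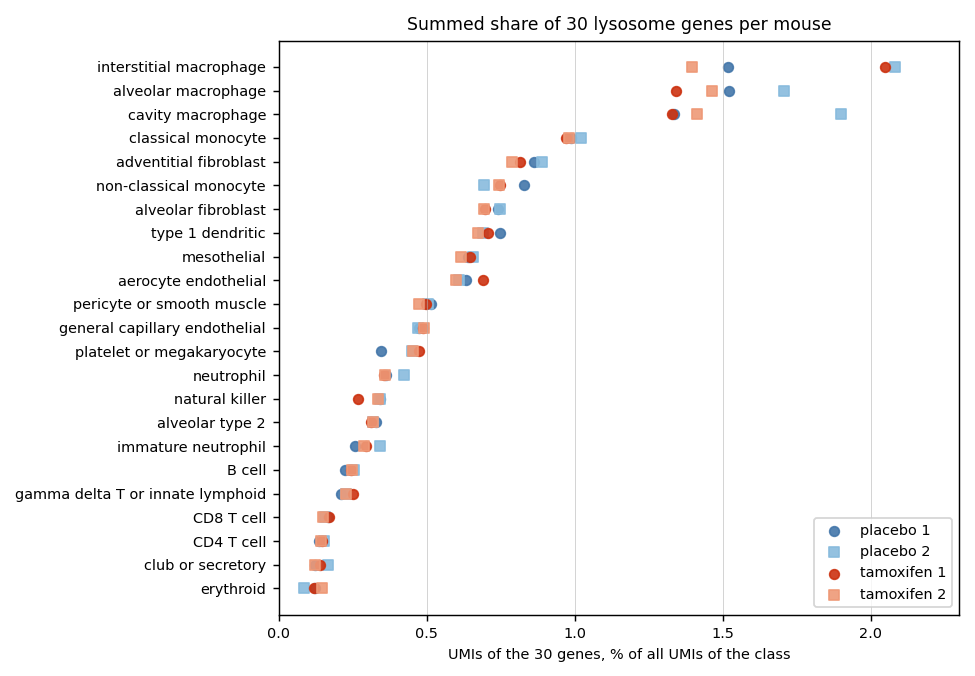
Summed UMIs of the 30 lysosome genes as a percentage of all UMIs of the class, for each of the 4 mice (blue placebo, red tamoxifen) in 23 cell classes. The distance between macrophages (1.33 to 2.08%) and B or T cells (0.136 to 0.253%) is much wider than that between the mice of a class.

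In the further classes, class and gene pairs with at least 20 UMIs in every mouse and no overlap were ranked by the size of the fitted change. Of the 10 with the largest change, 9 were higher and 1 lower. These 10 were picked by size, so they do not show the direction of the other pairs. The median of the lysosome genes was negative in 11 of the 19 further classes and positive in 8. The same ranking over all genes is not given here. Cd63 in mesothelial cells, which cover the lung surface, was at 102, 86.1, 255 and 154 CPM (1.10 ± 0.25, unadjusted p = 0.00182, adjusted p = 0.267). With replicate number as a block in edgeR it passed (adjusted p = 0.000694), among 164 of all genes of the class against 3 in the main fit. It passed without the count filter too. The class consists of 2 clusters that held different shares of it. Cluster 36 had 75, 35, 71 and 146 cells with 62.2, 72.1, 79.1 and 90.4 unscaled CPM of Cd63. Cluster 53 had 16, 8, 73 and 103 cells with 352, 248, 549 and 325. The second cluster, with the higher level in all mice, was therefore a larger part of the class in the tamoxifen mice. Markers of classical monocytes in this class, all 9 with UMIs, summed to 141, 33.1, 1265 and 503 unscaled CPM, and most of this was Fn1, the fibronectin gene, at 60.3, 15.2, 1128 and 398. The others did not all move that way: F13a1 was at 18.4, 0, 1.3 and 3.95, and Ccr2 at 9.21, 0, 5.21 and 7.11. Markers of interstitial macrophages in it, 11 of 13 with UMIs and Ccl12 and Cd163 at 0, summed to 535, 515, 868 and 639. Fn1 was also a leading gene of the cavity macrophage cluster (40, 9, 75 and 69 cells), whose markers were not summed in mesothelial cells. The part of any of these cell types in the Cd63 values was not tested.

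General capillary cells, the less specialised endothelium of the alveolar capillaries, gave 3 of the 10 pairs. Ctss was at 37.1, 41.1, 65.8 and 99.0 CPM (1.04 ± 0.27, unadjusted p = 0.00687, adjusted p = 0.948). Psap was at 510, 601, 830 and 955 CPM (0.68 ± 0.18), and Ctsc at 79.0, 61.7, 107 and 94.9 CPM (0.53 ± 0.22). All 3 were higher in both tamoxifen mice. Markers of alveolar macrophages in this class summed to 1681, 1442, 1512 and 1353 unscaled CPM with 13 of 14 detected and Marco at 0. Those of interstitial macrophages summed to 940, 817, 791 and 739, with 12 of 13 detected and Cd163 at 0. Neither sum was higher in both tamoxifen mice. Markers of type 2 cells summed to 41.8, 131, 50 and 1611, and those of classical monocytes to 215, 250, 214 and 492, both highest in tamoxifen 2, and their part in the 3 values was not tested. The class has 2 clusters, number 33 with a median of 4592.5 UMIs per cell and number 37 with 987.5. In cluster 33 Psap was at 511, 573, 648 and 564 unscaled CPM, and in cluster 37 at 568, 534, 1534 and 1306. Ctss was at 14.0, 1.42, 35.3 and 17.6 in cluster 33 and at 129, 132, 184 and 185 in cluster 37. Ctsc was at 79.3, 55.2, 107 and 88.1 in the first and at 87.8, 64.1, 107 and 90.5 in the second. The part of this make-up in the 3 values was not tested.

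In non-classical monocytes, the patrolling monocytes of vessels, Cd63 was at 28.6, 36.1, 91.9 and 41.7 CPM (1.03 ± 0.37, adjusted p = 1.00), and Ctsl at 27.5, 28.4, 58.7 and 31.3 CPM (0.68 ± 0.34). In both genes tamoxifen 1 stood apart and tamoxifen 2 lay near the placebo mice. The class has 3 clusters, and number 34, with a median of 986.5 UMIs per cell, held 83 of the Cd63 UMIs and 51 of the Ctsl UMIs of tamoxifen 1. There Cd63 was at 41.9, 0, 299 and 17.7 unscaled CPM and Ctsl at 32.6, 61.2, 184 and 17.7. In cluster 30 Cd63 was at 4.75, 3.75, 4.92 and 13.7, and in cluster 42 at 64.5, 60.2, 46.1 and 63.7, without the high value of tamoxifen 1. Without tamoxifen 2 Cd63 passed (log2 fold change 1.5, adjusted p = 0.00149). The keratin gene Krt19, also counted as a mesothelial marker, was likewise highest in tamoxifen 1, at 3.52, 0, 149 and 6.72 unscaled CPM, and the other 7 mesothelial markers were at 0 or 1 UMI per mouse. Its part in these values was not tested.

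Tpp1 in CD4 T cells was at 22.7, 26.1, 39.1 and 36.8 CPM (0.66 ± 0.23, adjusted p = 1.00). The same gene in adventitial fibroblasts was at 74.9, 83.4, 53.5 and 55.9 CPM (-0.52 ± 0.22, adjusted p = 0.957). Both pairs kept their direction in every alternative run for them. Asah1, the acid ceramidase, was at 130, 149, 200 and 234 CPM in aerocytes (0.62 ± 0.24). Alveolar macrophage markers there summed to 1354, 1115, 2611 and 1585 unscaled CPM, and interstitial macrophage markers to 1198, 1075, 994 and 1233. Ctsd in B cells was at 34.5, 44.1, 47.3 and 66.0 CPM (0.54 ± 0.24). By cluster it was at 27.6, 35.7, 40.1 and 32.6 unscaled CPM (number 0), 53.4, 62.9, 56.5 and 89.0 (17), and 24.5, 0, 67.7 and 67.2 (59). Neutrophil markers in B cells summed to 91.3, 200, 293 and 337. The part of these in the values was not tested.

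The rest of the lysosome pathway, 121 further genes in 5 lists, gave no call in the lead classes either, by edgeR or by DESeq2. In alveolar macrophages 0 of 96 tested genes passed in either direction, 3 had an unadjusted p under 0.05, and 17 were lower and 16 higher in both tamoxifen mice (median -0.03). In interstitial macrophages 0 of 111 passed, with 18 lower and 7 higher (median -0.08) and 1 unadjusted p under 0.05. In type 2 cells 0 of 64 passed, with 11 lower and 4 higher (median -0.03) and none with an unadjusted p under 0.05. Of all genes of alveolar macrophages, 16.0% were lower and 16.3% higher in both tamoxifen mice. These shares were 16.4% and 15.9% in interstitial macrophages, and 13.9% and 15% in type 2 cells. Whether the counts of the further genes differ from these shares was not tested. By list in alveolar macrophages, the medians were -0.13 for 31 other hydrolases, -0.05 for 14 other pump subunits, 0.06 for 16 other membrane proteins, -0.05 for 23 genes of biogenesis and sorting, and 0.12 for 12 genes of autophagy and damage sensing.

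Among them 3 genes per class are named. In alveolar macrophages Uvrag, which acts in autophagosome maturation, was at 22.6, 23.5, 13.9 and 8.29 CPM (-1.03 ± 0.44, adjusted p = 0.999). Arsa, the arylsulfatase A, was at 16.3, 25.7, 12.3 and 8.29 CPM (-1.02 ± 0.47), and Fnip1, a partner of folliculin, at 18.8, 19.0, 15.4 and 4.97 CPM (-0.86 ± 0.50). Each rested on 3 to 23 UMIs per mouse. In interstitial macrophages Gm2a, the activator of ganglioside breakdown, was at 148, 203, 237 and 256 CPM (0.49 ± 0.18, unadjusted p = 0.0286, adjusted p = 1.00). Npc1, the cholesterol exporter of the lysosome, was at 57.1, 53.0, 27.9 and 46.3 CPM (-0.55 ± 0.25), and Tmem106b at 25.4, 30.2, 20.3 and 18.6 CPM (-0.51 ± 0.25). In type 2 cells Galc, the galactosylceramidase, was at 33.1, 29.8, 17.7 and 15.4 CPM (-0.90 ± 0.52). There the autophagy kinase Ulk1 was at 28.9, 26.8, 20 and 7.71 CPM (-0.87 ± 0.61), and Fnip1 at 28.9, 35.8, 17.7 and 23.1 CPM (-0.68 ± 0.50).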

How the data were processed

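Lung cells of 4 mice were measured, 1 library each. The authors deposited raw UMI counts per gene and barcode; the file headers name Cell Ranger 5.0.0 and the submitters' processing notes Cell Ranger 8.0.1 with build mm10, and which one made the counts is not given in the sources used here. Barcodes under 250 detected genes or over 15% mitochondrial UMIs were dropped, as were those with a Scrublet score over 0.25 (scanpy 1.11.5), a limit set after the automatic one had marked 0 to 114 cells per mouse. The 28475 cells were clustered (2000 variable genes without lysosome genes, 40 components, leidenalg 0.10.2, resolution 4) into 82 clusters, of which 68 were named from markers into 30 classes and 14 stayed unnamed. Naming thresholds were set after the clusters had been seen and before the tests. UMI counts summed per mouse and class were tested with edgeR 4.0.16 in the 22 classes with at least 20 cells per mouse. The settings were R 4.3.3, TMM, filterByExpr, the quasi-likelihood F test, and Benjamini-Hochberg over all genes of a class with a threshold of 0.05. The fit was checked on counts simulated with the same dispersion for every gene. That check does not show how it behaves for genes with a wider spread between mice. Levels were to be ordered over all named classes; the 8 classes with fewer cells were left out of that order. DESeq2 1.42.0 and other settings served as alternatives. The gene list and the lists of further genes and markers were chosen with earlier results of these data known. Genes were named by rule: in each lead class those called, the 6 tested members with the largest fold change without overlap and the 4 with the highest level, in further classes the 10 class and gene pairs with the largest fold change without overlap and at least 20 UMIs in every mouse, and of the further lists 3 genes per lead class. In alveolar macrophages Lamp1, Gpnmb, Cd63, Pla2g15, Smpd1 and Atp6v0d2 were added after their values had been seen. Intervals of shares are exact and cover counting error only. With 2 mice in a group an exact permutation test of a single value cannot go below p = 0.333, so none was run. Same-numbered mice were not taken as pairs, since the labels tie a number to no litter or day. For the further pathway genes in type 2 cells, the effect of leaving out a mouse is not reported here.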

Additional observations from a re-analysis of the deposited data

Results flagged for a closer look

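Over all 22 classes, 23 of the 30 genes had both tamoxifen mice above both placebo mice in some class and below them in another. The same count was not made over all genes, so it cannot be read as particular to these 30. In alveolar macrophages alone, 16.3% of all genes lay above and 16.0% below in this way. Among the class and gene pairs described by name, and apart from pairs of lead classes, this held for 4 genes, and the difference between their classes was not tested. Ctsc had a log2 fold change of -0.22 in alveolar macrophages and -0.16 in alveolar type 2 cells, against 0.53 in general capillary cells. Ctss was at -0.22 in alveolar macrophages and 1.04 in general capillary cells, and Ctsl at -0.22 in alveolar macrophages and 0.68 in non-classical monocytes. Tpp1 was at -0.27 in alveolar macrophages, -0.52 in adventitial fibroblasts and 0.66 in CD4 T cells.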

How the results depend on the processing

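Alternatives per lead class were DESeq2, RLE size factors, no count filter, the replicate block, doublets kept, clustering with the lysosome genes, cells gated singly, equal cells per mouse, and each mouse left out. The count of lysosome genes called stayed at 0 in type 2 cells in all of them. In alveolar macrophages it stayed at 0 except without placebo 2, where Cd63 was called higher (log2 fold change 0.85). Fits with a mouse left out rest on 1 mouse in a group. In alveolar macrophages each of them also called other genes, where the main fit called 0 of all genes. In interstitial macrophages edgeR without the count filter called 2 (Atp6v0d2, adjusted p = 0.00143, and Ctsl, adjusted p = 0.0202). That setting called 57 of all genes of the class, against 0 in the main fit. No lysosome gene was called there with a mouse left out. In the further classes the replicate block called 2 pairs (Cd63 and Ctss in mesothelial cells). Without the count filter 9 pairs were called, and the calls over all genes there are not given here. Higher was Ctss in adventitial fibroblasts, immature neutrophils, mesothelial cells and general capillary cells. Cd68 in general capillary cells, Cd63 in mesothelial cells and Atp6v0d2 in immature neutrophils were higher too. Lower was Cd63 in aerocytes (log2 fold change -2.09) and natural killer cells (-6.2). Calls also arose with a mouse left out. They were Ctss in adventitial fibroblasts (2.24 to 7.45) and immature neutrophils (1.56 to 1.94), and Cd63 in non-classical monocytes (1.5) and, lower, in aerocytes (-2.86). With a mouse left out, the comparison between the macrophage classes called Gpnmb, Atp6v0d2, Ctsd or Ctsl. That between alveolar macrophages and type 2 cells called Cd68 and Psap, both without placebo 1. Of the further pathway genes, Lgals3 was called in interstitial macrophages. The calls over all genes in these fits are not given here. The difference in summed share of type 2 cells, tamoxifen minus placebo, was -0.00876 percentage points and -0.00238 with equal cells per mouse; that of interstitial macrophages was -0.0766, and turned to 0.00448 with equal cells and 0.0356 with cells gated singly, where the median log2 fold change of the 30 genes was 0.01. The causes were not tested.

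Of 41 named log2 fold changes, 30 kept their direction throughout and 11 changed sign in some setting. With equal cells per mouse those that changed sign were Mcoln1 (0.025), Ctsb (0.055), Ctss (0.00065) and Ctsd (0.096) in interstitial macrophages and Atp6v1h (0.052) in type 2 cells. With cells gated singly they were Ctsb (0.023), Ctss (0.097), Ctsd (0.11), Atp6v0d2 (0.0041) and Ctsl (0.14) in interstitial macrophages, and without the cells with a Gpnmb UMI, a setting chosen after seeing the data, Ctss (0.027). With a mouse left out, where a lone mouse is assumed to vary like the other group, values in interstitial macrophages ran from -0.29 to 0.19 for Ctsb, -0.16 to 0.77 for Psap, -0.33 to 0.30 for Ctss, -1.49 to 1.16 for Ctsd, -3.68 to 7.40 for Gpnmb, -3.55 to 3.27 for Atp6v0d2 and -1.57 to 0.46 for Ctsl. In alveolar macrophages they ran from -0.41 to 0.091 for Psap and -0.33 to 0.015 for Ctsd.

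Same-numbered mice deviated with correlations of 0.018 in alveolar macrophages, -0.075 in interstitial macrophages and 0.084 in type 2 cells, and over all 22 classes from -0.153 to 0.493, with 0.405 in aerocytes and 0.269 in general capillary cells. With 2 pairs and no label that ties a number to a litter or day, the numbers were not taken as pairs. The replicate block moved the count of all genes called from 0 to 11, from 0 to 9 and from 1 to 11 in these classes, and from 3 to 164 in mesothelial cells; in the lead classes it called no lysosome gene. In classical monocytes and neutrophils, where the correlation was -0.153, crossed numbers called 4 and 41 genes against 0, none of them a lysosome gene. Depth limits genes with few UMIs, such as Smpd1 in alveolar macrophages and 8 genes in type 2 cells.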
